A study of Homo sapiens with 8 samples.

Results

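The transcriptome described here is that of MM1.S cells kept in DMSO, the solvent control of the series, and it was read as a ranking of gene levels with no treatment contrast. It comprises 2 of the 8 libraries and all 16295 genes listed for them. MM1.S is an established human multiple myeloma line. The series is RNA-seq of total RNA from this line, in 4 groups of 2 libraries. The DMSO group received DMSO for 24 h, and the other groups received MS177, MS177N1 or C24, each at 0.5 uM for 24 h. The labels name no genetic change in any group, so the levels describe 1 line in culture with solvent and not primary plasma cells. The labels number the 2 DMSO libraries but do not say whether they came from separate cultures, so the spread given between them may be technical.

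Multiple myeloma is a cancer of plasma cells, the antibody-secreting end stage of the B cell lineage. On becoming a plasma cell, a B cell turns off genes of its earlier identity such as PAX5 and turns on IRF4, PRDM1 and XBP1, which set up antibody production and a large endoplasmic reticulum. Antibody chains enter this compartment through the SEC61 channel, are folded by chaperones and disulfide isomerases, receive sugars, and leave in coated vesicles, while misfolded chains are sent to the proteasome. Many myelomas also carry a translocation that places an oncogene such as MAF, a cyclin D gene or MYC beside an immunoglobulin locus.

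The deposited log2 values were turned back into whole reads, 20662196 in DMSO library 1 and 23526036 in DMSO library 2. A normalized read is a read divided by the library's size factor, 0.909 for library 1 and 1.04 for library 2. Levels of different genes are compared only as normalized reads per kilobase of transcript, for the 14436 genes whose transcript length could be matched. The length is that of the annotated principal transcript, and 3 other lengths were tried, the median transcript, the longest transcript and the coding length. Where one of them moved a ratio between genes by over 1.5 times, its values or their range over the 3 are printed with the ratio. Orders within a list are by principal transcript. A gene's percentile is its place among those genes, where 100 is the highest level and the top 10% begins at 1310 normalized reads per kilobase. Values are given for library 1 and library 2 in that order, or as the mean ± SD of the 2. Spread between the 2 libraries was 5.64 times counting noise, as chi-square over degrees of freedom, and the deviation followed transcript length, as described at the end. In bulk RNA, fewer cells with a transcript and less of it per cell cannot be told apart.

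Listed genes spanned the range from 0 to over 100000 normalized reads. Of the 16295 genes, 348 had 0 reads in both libraries, 2407 had a mean of 1 to 10 normalized reads, 3139 had 10 to 100, and 5407 had 100 to 1000. A further 4374 genes had 1000 to 10000, 330 had 10000 to 100000, and 7 exceeded 100000. The reads were spread over many genes: 755 genes held 50% of the reads in library 1 and 773 in library 2. The 10 most abundant genes held 6.45 ± 0.067% of the reads (SD, n = 2), and the 100 most abundant held 20.8 ± 0.27%. Protein-coding genes took 97.3% and 97.5% of the reads.

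**Figure D1:**
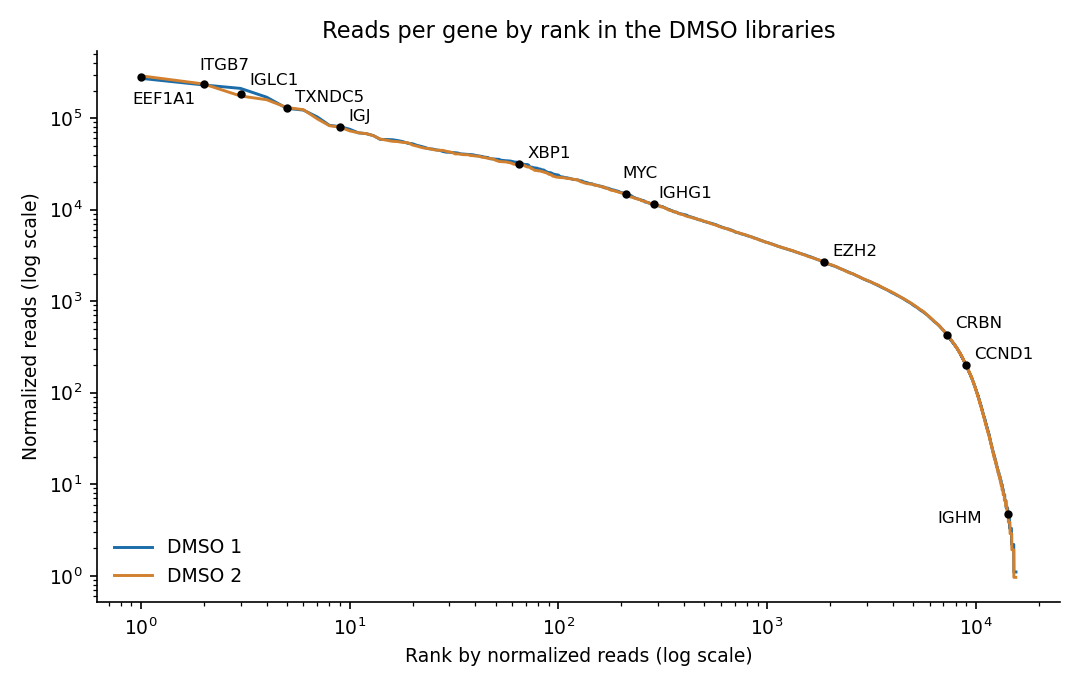
Normalized reads of every listed gene with a read, against its rank, in DMSO library 1 (blue) and library 2 (orange), both axes on a log scale. Named points are means of the 2 libraries. The curves lie on each other except near IGLC1, at 211560 and 159116 normalized reads.

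By reads, the transcriptome was led by EEF1A1, the elongation factor that brings aminoacyl-tRNA to the ribosome, with 281355 ± 12615 normalized reads (SD, n = 2). ITGB7, the beta 7 integrin subunit, came next with 233440 ± 3917. The lambda light chain constant gene IGLC1 had 185338 ± 37084, the mitochondrial cytochrome oxidase gene MT-CO1 172247 ± 3676, and the disulfide isomerase TXNDC5 129437 ± 1869. IGLC1 and MT-CO1 changed places between the libraries. Then followed EEF2, a second elongation factor, with 122559 and 123900 normalized reads, the glycolytic enzyme GAPDH with 103084 and 98274, and cytoplasmic actin ACTB with 83538 and 82737. JCHAIN, listed under its older symbol IGJ, is the joining chain of polymeric immunoglobulins and had 80811 and 79845 normalized reads. The remaining places among the first 20 went to RPL13A, ACTG1, IGLL5, TUBA1B, HSP90AB1, RPL8, RPLP1, RPLP0, MT-ND4, EEF1G and RPS3. EEF1A1, ACTB, ACTG1, TUBA1B and the ribosomal protein genes have near-identical copies elsewhere in the genome, so their reads may be split or pooled in ways the files do not show.

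Per kilobase, IGLC1 was first with 402909 ± 80618 normalized reads per kilobase, ahead of EEF1A1 (122169 ± 5478), MT-CO1 (111704 ± 2384) and ITGB7 (82517 ± 1385). Of the first 20 genes by this measure, 12 encode cytosolic ribosomal proteins, and 9 are also among the first 20 by reads. RPS18, the fifth gene, stood at 78129 ± 3016 and RPL35, the sixth, at 75056 ± 9407. The order within this group is loose: for 13 of the 19 neighbouring pairs the ranges of the 2 libraries overlapped. ITGB7 is unusual in its company, being a surface adhesion receptor among mostly ribosomal, mitochondrial and immunoglobulin genes. In library 1 its level per kilobase was 1.77 times that of ACTB, and in library 2 it was 1.83 times.

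Immunoglobulin reads were assigned almost entirely to the lambda constant gene IGLC1, to IGLL5 and, at a lower level, to the gamma 1 heavy chain constant gene IGHG1. Reads of a constant gene do not show that a rearranged chain of that class was made, and the antibody class of the cells was not tested. IGLC1 had 211560 and 159116 normalized reads, whereas IGLC2 had 42 and 26 reads before normalization and IGLC3 had 7 and 11. IGLL5, which shares its last exons with IGLC1 in the genome, had 67778 and 67812, and reads of these overlapping genes cannot be assigned with certainty. Among heavy chains, IGHG1 had 11566 and 11306 normalized reads, IGHG3 48.4 and 18.3, IGHG2 25.3 and 18.3, IGHA1 18.7 and 17.3, and IGHM 5.50 and 3.85. Per kilobase IGHG1 stood 318 ± 12 times above IGHA1 (SD, n = 2), or 634 times by coding length. IGLC1 stood 104 times above IGHG1 in library 1 and 80.1 times in library 2, with a mean of 92.1 that became 61.1 by coding length. Of the variable genes listed, the lambda genes IGLV2-14 (823 and 577) and IGLV6-57 (223 and 254) and the heavy chain gene IGHV3-30 (80.3 and 98.1) had reads. The constant genes of the same class are closely similar in sequence, so the low values of the others may include misassigned reads. IGLC1 differed more between the 2 libraries, relative to its mean, than any other of the first 20 genes by reads, and its annotated transcript is 460 bases long.

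Some helpers of antibody assembly were also abundant. Of the 8 listed, 3 were in the top 10%, 4 were above the median gene, and the median percentile was 64.0. The 3 are IGJ, MZB1 and IGLL5, and the reads of IGLL5 cannot be separated with certainty from those of IGLC1. IGJ stood at 57132 ± 486 normalized reads per kilobase, percentile 99.9. MZB1, an endoplasmic reticulum protein of B and plasma cells, had 17711 and 17139.5 normalized reads and percentile 99.4. The B cell receptor partners were lower than IGJ and MZB1 and unequal. CD79B had 757 and 785 normalized reads and percentile 79.6, and CD79A had 18.7 and 23.1 and percentile 24.4. PIGR, the epithelial receptor that carries polymeric immunoglobulin, had 6.60 and 3.85.

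The largest single class by reads was the cytosolic ribosome. Its 79 listed protein genes held 9.35% of the reads in library 1 and 8.90% in library 2. With principal transcripts all 79 lay in the top 10% of levels. Their median was 27115 normalized reads per kilobase against 133 over all genes. RPL37 was then the lowest at percentile 93.1, although it had 17723 and 12331 normalized reads. The annotated transcript used for it is 7686 bases long. RPL14 and RPL37A, next in order, were also divided by long transcripts of 3994 and 3647 bases. RPS29 stood at percentile 98.7, or 82.1 with its longest transcript of 7062 bases.

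Ribosomal protein mRNAs are known to start with a C followed by a run of pyrimidines, the TOP motif through which mTOR signalling controls their translation. In RefSeq starts (GRCh38.p14), a C at the first base followed by at least 4 pyrimidines was found at a start of 47 of the 63 ribosomal protein genes matched by symbol (74.6%) and of 7 of 15 translation factor genes. Among all 10959 listed genes with a RefSeq start the share was 7.29%, and over all 27305 RefSeq genes 5.14%. The windows below run from 10 bases before the start to 20 bases after it, 5′ to 3′ on the gene's strand, for the most abundant such genes. Capitals mark the C and the pyrimidines that follow it.
RPS18 (chr6:33272065-33272094, + strand): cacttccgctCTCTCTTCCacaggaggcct
RPL35 (chr9:124861938-124861967, - strand): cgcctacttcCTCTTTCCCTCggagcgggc
RPS16 (chr19:39435930-39435959, - strand): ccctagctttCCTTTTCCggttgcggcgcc
RPS27 (chr1:153990752-153990781, + strand): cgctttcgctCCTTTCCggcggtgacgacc
RPL13A (chr19:49487598-49487627, + strand): aaacctcctcCTTTTCCaagcggctgccga
EEF1A1 (chr6:73521013-73521042, - strand): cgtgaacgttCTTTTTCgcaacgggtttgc
EEF2 (chr19:3985444-3985473, - strand): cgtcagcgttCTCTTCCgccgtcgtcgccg
The tracts are 7 to 11 bases long in these genes. Over the 799 listed genes with such a start and a length, the median percentile was 64.5, against 52.7 for the 10157 without one. That difference includes the ribosomal genes themselves, and a match describes letters only.

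Other genes of bulk protein synthesis and energy supply filled the same range. With principal transcripts all 19 listed translation factors were in the top 10%, from EIF3E at percentile 93.6 to EEF1A1. By coding length EIF3E and EIF3C were not, at percentiles 86.5 and 87.8. The 13 protein genes of the mitochondrial genome held 2.10% and 2.07% of the reads, and 12 were in the top 10%. MT-ATP8, at percentile 87.4, and MT-ND4L overlap their neighbours MT-ATP6 and MT-ND4, and MT-ND6 lies on the opposite strand beside MT-ND5, so their reads are uncertain in libraries that do not mark strand. Of 19 glycolysis genes 12 were in the top 10%. GAPDH, ALDOA and LDHA led, the latter with 39252 and 42215 normalized reads, while the phosphofructokinase isoforms ran from PFKL at 8926 and 8676 to PFKP at 3.30 and 0. Among hexokinases HK2 (3372 and 3381) exceeded HK1 (535 and 554) by reads, and per kilobase it was 585 against 151. Cytosolic and mitochondrial chaperones had 17 of 22 genes in the top 10%, led by HSP90AB1, HSPA8 and HSPD1.

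The secretory pathway as a whole stood high. Of 130 listed genes with roles from translocation to vesicle transport, 66 were in the top 10% of levels, where 1444 of all 14436 genes are by construction, and 127 were above the median gene. The median percentile was 90.2. The list held 4.15% and 4.21% of the reads, of which TXNDC5 alone gave 0.571%. The 3 members below the median gene were ERO1LB, FKBP14 and SEC23A.

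**Figure D2:**
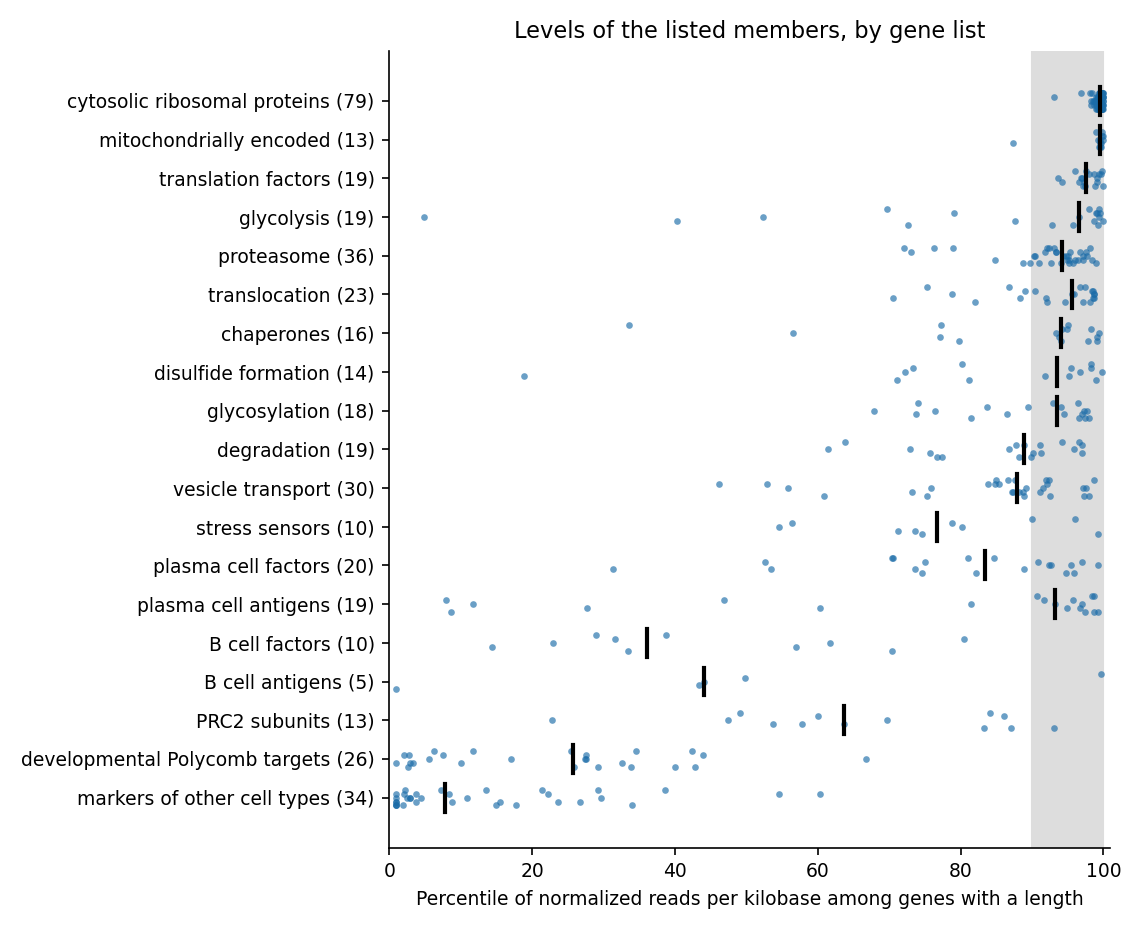
Percentile of normalized reads per kilobase (mean of the 2 DMSO libraries) among all genes with a length, 1 point per listed gene, by list or role, with the number of genes in parentheses. Black bars are medians and the grey band is the top 10% of all genes. Ribosomal, mitochondrial and translation genes sit at the right edge, secretory roles have medians from 76.7 to 95.6, and markers of other cell types have a median of 7.79.

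Translocation into the endoplasmic reticulum had 16 of 23 genes in the top 10%. SEC11C, a catalytic subunit of the signal peptidase, led with 9667 normalized reads per kilobase, from 11673 and 11565 normalized reads. SEC11A, the related catalytic subunit, had 2750.4 and 2746 normalized reads and 1659 per kilobase. The channel subunits SEC61G, SEC61B and SEC61A1 stood at 8919, 7922 and 4357 per kilobase. SRP19, a protein of the signal recognition particle, was the lowest at 369 per kilobase, percentile 70.6.

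Chaperones of the compartment had 11 of 16 genes in the top 10%. Calreticulin (CALR) led with 41927 and 39028 normalized reads and 21270 ± 1077 per kilobase. HSP90B1, the GRP94 chaperone, had 39999 and 39899 normalized reads, and HSPA5, the BiP chaperone that also senses unfolded chains, had 21293 and 22378. Per kilobase HSP90B1 was 2.50 ± 0.092 times HSPA5 (SD, n = 2), with a range of 1.49 to 5.35 over the other lengths. CANX, the membrane-bound partner of CALR, had 27805 and 30051 normalized reads. FKBP14, a prolyl isomerase, was the lowest with 201 and 219, at percentile 33.6.

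Disulfide formation was dominated by TXNDC5, which had 128116 and 130759 normalized reads. It stood 3.37 ± 0.10 times above P4HB, the archetypal protein disulfide isomerase, and 16.3 ± 0.39 times above PDIA3, the isomerase that works with CALR and CANX (per kilobase, SD, n = 2). P4HB had 34109 and 33331 normalized reads, TXNDC11 21605 and 21538, PDIA6 15318 and 15851, and PDIA4 11254 and 11498. The oxidases that recharge these isomerases differed: ERO1A, listed as ERO1L, had 1962 and 2030.4 normalized reads, and ERO1B, listed as ERO1LB, had 40.7 and 32.7, the lowest member of the list at percentile 18.9.

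Glycosylation had 10 of 18 genes in the top 10%, with the oligosaccharyltransferase subunits RPN1 (12969.7 and 13308), DDOST (9402 and 9921) and RPN2 (10446 and 11029) near the front. Its catalytic subunits STT3A and STT3B stood at 2242 and 1884 per kilobase, and GFPT1, the entry enzyme of the hexosamine pathway, was lowest at 319. Degradation of misfolded chains had 8 of 19 genes in the top 10%. VCP, the ATPase that pulls chains out of the membrane, had 18122 and 19287 normalized reads. DERL3, DERL1 and DERL2 are related membrane proteins of the export channel. DERL3 stood at 4134 per kilobase and DERL2 was the lowest of the role at 237. The order of DERL3 and DERL1 is not settled, since DERL3 was 2.74 ± 0.14 times DERL1 with principal transcripts but 0.638, 0.757 and 0.754 times with the median transcript, the longest transcript and the coding length. The DERL2 value depends on its annotated transcript, since its percentile was 61.5 with the 4209-base principal transcript and 89.9 with the 657-base median of its transcripts. Vesicle transport had 11 of 30 genes in the top 10%, from ARF1 at 9556 per kilobase, a small GTPase that recruits coats, to SEC23A at 107. The related coat subunit SEC23B stood at 993.

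Stress sensors were the lowest secretory role, with 2 of 10 genes in the top 10%. XBP1, the transcription factor spliced by IRE1, had 31974 and 31433 normalized reads and 17137 per kilobase, at percentile 99.3. ATF4 had 6691 and 5820.2 normalized reads. The sensors themselves were lower: ERN1, which encodes IRE1, stood at 630 per kilobase, EIF2AK3, which encodes PERK, at 577, and ATF6 at 431, so that XBP1 was 39.8 ± 1.1 times ATF6 (25.2 to 41.0 over the other lengths). DDIT3, the CHOP factor induced by prolonged stress, had 166 and 171 normalized reads. Gene counts do not show the splicing of XBP1 or the processing of ATF6.

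Several of these genes share short promoter sequences that ATF6 and XBP1 are known to bind. The endoplasmic reticulum stress element (ERSE) was searched as CCAAT and CCACG with 9 bases of any kind between them, and the related ERSE-II as ATTGG and CCACG with 1 base between them, on both strands, in RefSeq windows of 250 bases before to 50 bases after each start. ERSE occurred in 17 of the 10959 listed genes with a window (0.155%), and 8 of the 17 are in the secretory list: CALR, HSP90B1, CANX, HSPA5, PDIA6, CRELD2, ERO1LB and XBP1. Over all 27305 RefSeq genes the share was 0.0916%. ERSE-II occurred in 14 listed genes (0.128%), among them HERPUD1, SDF2L1 and HYOU1, and in 0.0696% of all RefSeq genes. The HSPA5 window is shown whole with its exact match in capitals, since HSPA5 is the classical target.
HSPA5 (GRCh38.p14 chr9:125241294-125241593, - strand): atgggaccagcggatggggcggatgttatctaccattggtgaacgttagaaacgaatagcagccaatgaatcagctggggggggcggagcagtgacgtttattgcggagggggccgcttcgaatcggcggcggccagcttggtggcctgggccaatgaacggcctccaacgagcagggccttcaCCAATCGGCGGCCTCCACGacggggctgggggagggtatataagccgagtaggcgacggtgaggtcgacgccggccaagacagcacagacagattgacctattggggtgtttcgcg
The match lies 66 to 48 bases before the start. The next windows show the matches of other members with 10 bases on each side, or fewer at a window's edge, 5′ to 3′ on the gene's strand in the same build. In CALR, CRELD2, ERO1B, SDF2L1 and HYOU1 the match is on the opposite strand, so its letters read in reverse complement.
HSP90B1 (chr12:103930206-103930244, + strand): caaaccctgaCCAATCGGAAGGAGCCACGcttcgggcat
CANX (chr5:179698768-179698806, + strand): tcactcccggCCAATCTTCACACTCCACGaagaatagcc
XBP1 (chr22:28800593-28800631, - strand): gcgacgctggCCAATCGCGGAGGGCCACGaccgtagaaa
CALR (chr19:12938374-12938412, + strand): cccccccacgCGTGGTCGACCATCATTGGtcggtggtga
CRELD2 (chr22:49918544-49918582, + strand): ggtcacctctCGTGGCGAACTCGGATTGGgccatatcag
ERO1B (chr1:236282173-236282208, - strand): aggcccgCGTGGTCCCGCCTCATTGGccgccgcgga
HERPUD1 (chr16:56932015-56932045, + strand): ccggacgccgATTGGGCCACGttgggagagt
SDF2L1 (chr22:21642104-21642134, + strand): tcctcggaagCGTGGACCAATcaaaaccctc
HYOU1 (chr11:119057370-119057400, - strand): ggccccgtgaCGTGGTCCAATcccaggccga
A match did not go with a high level in every gene. The 17 genes with an ERSE had a median percentile of 81.2 and ran from CALR at 99.4 to SYNPO at 3.69, and 7 of them were in the top 10%. ERO1LB, whose window holds an exact match, was at percentile 18.9, and CRELD2 at 81.2. The shorter motif TGACGTGG, the unfolded protein response element, occurred in 17 of 114 secretory genes with a window (14.9%). It occurred in 1.20% of listed genes with a window and in 0.927% of all RefSeq genes. In HYOU1 it overlaps the ERSE-II match. TXNDC5 was the most abundant secretory gene that holds it, and the others include ARF1, SSR4, VCP and 3 coat subunits, COPA, COPB1 and COPB2. Over the 132 listed genes with this motif the median percentile was 53.4, equal within rounding to that of the 10824 genes without it.

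The proteasome degrades the chains that the compartment exports and is the target of bortezomib. With principal transcripts it had 29 of 36 genes in the top 10% and none below percentile 72.1. By coding length several of these left the top 10%, among them PSMA3 at percentile 81.9 and PSMD1 at 79.6, and PSMC6 stood at 70.5. Of the core subunits PSMB4 was highest with 11952 and 11279.9 normalized reads. PSMB5, the subunit bortezomib binds, had 1141 and 1071 normalized reads, and its level per kilobase was 0.486 ± 0.0037 times that of PSMB8, the immunoproteasome subunit that can replace it (SD, n = 2). With principal transcripts all 5 listed genes of the immunoproteasome and its activator were in the top 10%, between percentile 92.4 and 95.0. By coding length PSMB8 and PSMB9 were not, at percentiles 86.4 and 87.8.

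Factors assigned to the plasma cell stood mostly high, and those assigned to the earlier B cell stood lower or are not listed. Of 20 plasma cell factors 8 were in the top 10%, 19 were above the median gene and the median percentile was 83.4. This list is not exclusive to plasma cells, since it includes factors that earlier B cells share. Among the 8 are TCF3 and MEF2C, at percentiles 95.5 and 92.7, so the contrast depends in part on how shared factors were assigned. Of 10 listed B cell factors 0 were in the top 10%, 4 were above the median gene and the median percentile was 36.1. After XBP1 came ZBTB38, a zinc finger factor (19294 and 21359 normalized reads), IRF4, on which myeloma cells are known to depend (16459.8 and 17070.3), TCF3, the E2A factor (12897 and 12436), and POU2AF1, the OCT-binding coactivator (8349 and 8331). Per kilobase IRF4 stood 2.63 ± 0.016 times above PRDM1, the BLIMP1 repressor, which had 6079 and 6251 normalized reads and percentile 88.8; the other lengths gave 2.10 to 4.97 times. POU2F2, the OCT2 factor, was the lowest plasma cell factor with 219 and 251. BHLHA15, the MIST1 factor of secretory cells, had 485 and 512.

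Among B cell factors, BCL6, the germinal centre repressor, had 15.4 and 10.6 normalized reads, SPIB 56.1 and 35.6, and BACH2, a repressor of PRDM1, 371 and 386. CIITA, the switch for MHC class II genes, had 543 and 570.1, and XBP1 stood 495 ± 23 times above it per kilobase. That ratio rests on a 16059-base CIITA transcript and was 119 with the median transcript and 247 by coding length. LEF1, a WNT pathway factor of early lymphocytes, was the highest, with 1966 and 1969.9 normalized reads and percentile 80.5. The others above the median gene were ID3, an inhibitor of E proteins (507 and 409, percentile 70.4), SPI1, the PU.1 factor (369 and 303, percentile 61.7), and FOXP1 (506 and 585, percentile 57.0). PAX5, EBF1 and TCL1A are not listed and were not analysed here.

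**Figure D3:**
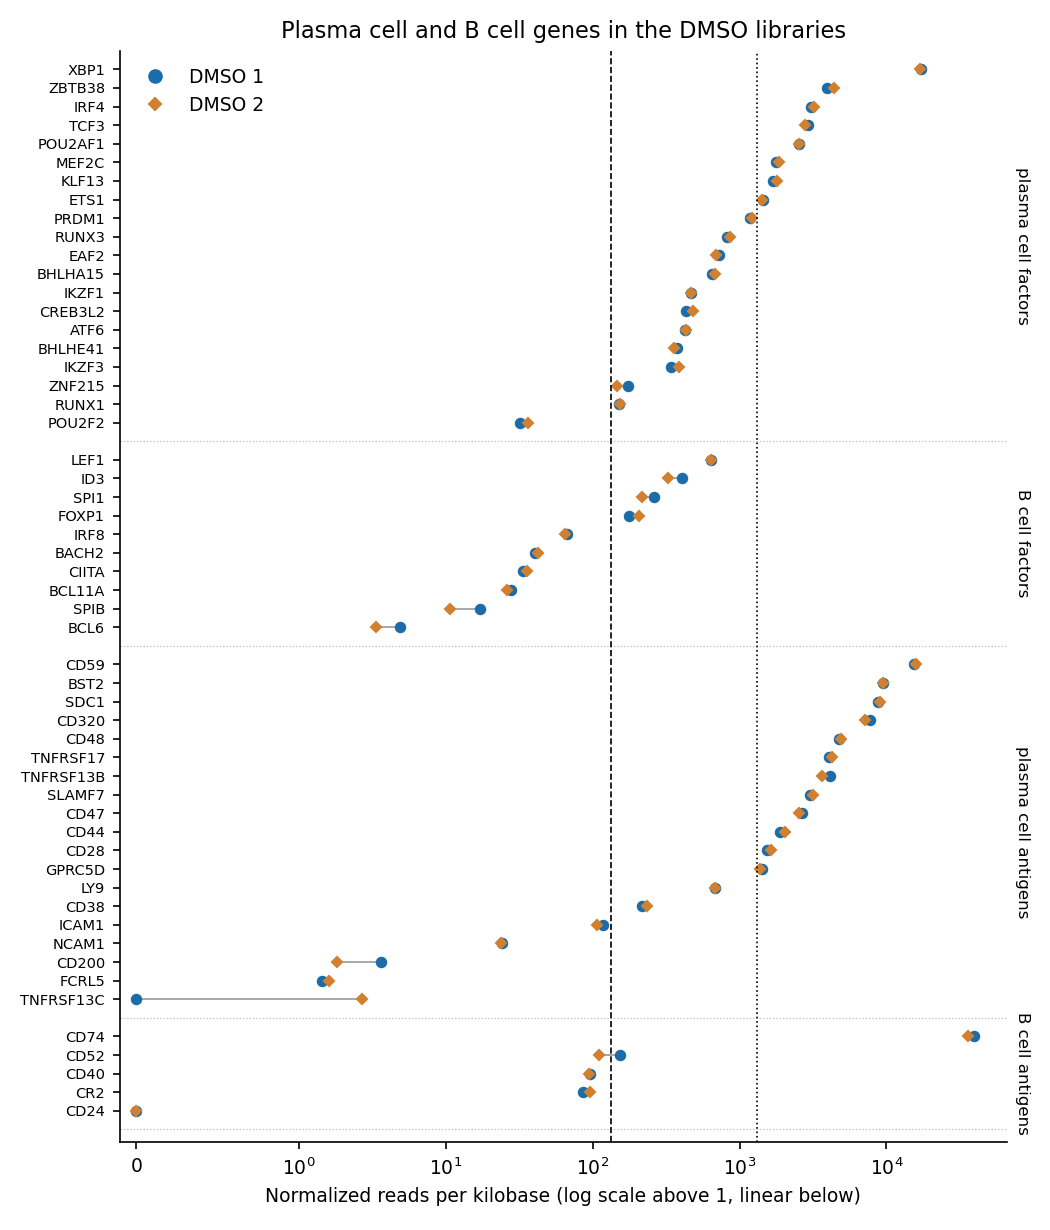
Normalized reads per kilobase of plasma cell and B cell factors and antigens in DMSO library 1 (blue circles) and library 2 (orange diamonds), on a log scale above 1. The dashed line is the median of all genes (133) and the dotted line the start of the top 10% (1310). Most plasma cell genes lie right of the dashed line, and B cell genes other than CD74, LEF1, ID3, SPI1 and FOXP1 lie left of it or across it.

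Surface antigens of plasma cells were likewise high, with 12 of 19 in the top 10% and a median percentile of 93.2. SDC1, the CD138 proteoglycan used to isolate plasma cells, had 28444 and 29159.7 normalized reads and 8948 per kilobase. TNFRSF17, the BCMA receptor targeted by CAR T cells and bispecific antibodies, had 4074 and 4218 and percentile 97.0. Its relative TNFRSF13B, the TACI receptor, had 5621 and 4959.8, while the third receptor of this family, TNFRSF13C, had 0 and 10.6. SLAMF7, the target of elotuzumab, had 8163 and 8449 normalized reads and percentile 95.8, and GPRC5D, an orphan receptor and bispecific target, had 1288 and 1243 and percentile 90.7. CD38, the target of daratumumab, was lower, with 1224 and 1337 normalized reads and percentile 60.4, and SDC1 stood 39.7 ± 1.8 times above it per kilobase (21.8 to 40.6 over the other lengths). FCRL5 had 7.70 and 8.65 normalized reads and CD200 7.70 and 3.85. CD59, a complement inhibitor, led the list per kilobase at percentile 99.2, but this rests on a 750-base transcript, and with its longest transcript it stood at 92.5. CD47, a signal against phagocytosis, moved in the same way from 94.9 to 82.1.

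B cell antigens in the list used here were sparse, with 1 of 5 above the median gene. CD79B, at percentile 79.6, was counted with antibody assembly and not here. MS4A1, CD22 and FCER2 are not listed and were not analysed here, and CD24 had 0 reads in both libraries, which allows up to 3 reads in each for counting error only. CR2, a complement receptor, had 347 and 391 normalized reads, and CD40 165 and 162. CD74, the invariant chain of MHC class II, was the exception with 38509 and 35556 normalized reads and percentile 99.7. The MHC class II genes were divided. Of 12 listed genes 2 were in the top 10%, CD74 and HLA-DRA (6472 and 6460.5), 6 were above the median gene, and CD74 stood 7.47 ± 0.41 times above HLA-DRA per kilobase (4.91 to 6.62 over the other lengths). Next came HLA-DPA1 (1686 and 1774 normalized reads, percentile 87.0), HLA-DMA (557 and 596, percentile 76.8) and HLA-DPB1 (652 and 693, percentile 73.7). HLA-DRB1 had 273 and 283, HLA-DQB1 7.70 and 12.5, and HLA-DQA1 0 and 6.73; HLA genes vary so much between people that reads can be lost or misassigned. MHC class I genes mostly stood high: B2M had 37386 and 38963 normalized reads, and 7 of 10 genes were in the top 10%.

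Receptors for adhesion and cytokines had 6 of 17 genes in the top 10%. ITGB7 was far above both of its integrin relatives, 92.5 ± 3.0 times its partner ITGA4 and 107 ± 3.6 times ITGB1 per kilobase (SD, n = 2). SELPLG, the selectin ligand, had 16735 and 16236 normalized reads. IL6R, the receptor for the myeloma growth factor IL-6, had 14026 and 14669, 4.23 ± 0.042 times its signalling partner IL6ST per kilobase (2.28 to 5.59 over the other lengths). The chemokine receptors CCR1 (4842 and 4595) and CCR10 (2462 and 2335) were in the top 10%, and CXCR4, which holds plasma cells in the marrow, was at percentile 83.7 with 1529.9 and 1441. IGF1R had 1139 and 1120.0 normalized reads and percentile 43.9. IL-6 itself is not listed.

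Among the genes recurrently placed beside immunoglobulin loci in myeloma, MYC, MAF, IRF4 and CCND2 were in the top 10% and the others were not. MYC had 15202 and 14228 normalized reads and stood 72.4 ± 1.3 times above MYCL per kilobase (46.9 to 80.6 over the other lengths), and MYCN had 25.3 and 19.2. MAF, a bZIP factor, had 11658 and 11211, whereas its relative MAFA (3.30 and 0.961) was close to 0. WHSC1, the older symbol of the histone methyltransferase NSD2, had 5337 and 5735 normalized reads and FGFR3, its neighbour in the same rearrangement, 16.5 and 1.92. Of the D cyclins, which drive entry into the cell cycle, CCND2 had 15169 and 15556 normalized reads, CCND3 1625 and 1524, and CCND1 214 and 187. Per kilobase CCND2 stood 3.14 ± 0.20 times above CCND3, or 3.12 to 9.87 times over the other lengths. It stood 51.2 ± 5.6 times above CCND1, or 28.9 to 78.6 times.

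**Figure D4:**
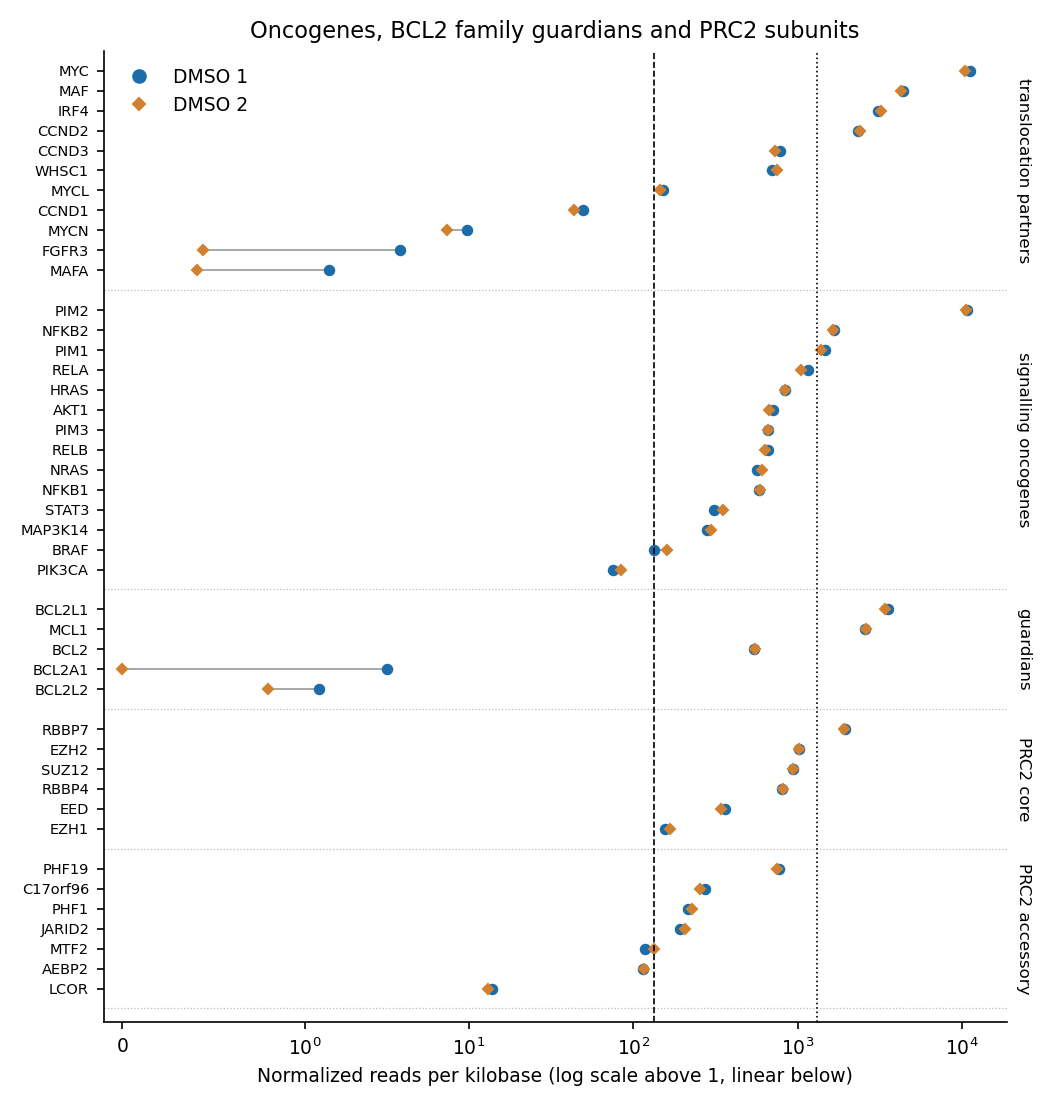
Normalized reads per kilobase of translocation partner genes, signalling oncogenes, BCL2 family guardians and PRC2 subunits in DMSO library 1 (blue circles) and library 2 (orange diamonds), on a log scale above 1. The dashed line is the median of all genes (133) and the dotted line the start of the top 10% (1310). MYC and PIM2 stand near 10000, whereas MAFA, FGFR3, BCL2A1 and BCL2L2 lie below 4.

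Genes reported as targets of MAF in myeloma were divided. ITGB7, CCND2, DEPTOR and CCR1 were in the top 10%, and ITGA8, an integrin alpha subunit, was at percentile 84.2 with 5247 and 5813 normalized reads. DEPTOR, an inhibitor of mTOR that is high in MAF-driven myeloma, had 5965 and 6040.4. CX3CR1 (164 and 179), RND3 (138 and 129), NTRK2 (181 and 185) and SMARCA1 (0 and 2.88) were below the median gene. Of the 14 genes, 8 were above it.

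Signalling genes were mostly above the median gene, 15 of 16. PIM2, a kinase of plasma cell survival, had 22368 and 21942 normalized reads, 7.46 ± 0.19 times PIM1 and 16.2 ± 0.18 times PIM3 per kilobase. NRAS and HRAS, small GTPases of growth factor signalling, had 2538 and 2691, and 918 and 918 normalized reads. NFKB2 had 5193 and 5096 normalized reads, 2.83 ± 0.082 times NFKB1 per kilobase. PIK3CA was the lowest at percentile 41.4.

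Tumour suppressors spanned nearly the whole scale. FAM46C, the older symbol of the polyadenylating enzyme TENT5C, which is often mutated in myeloma, had 20938 and 22859.8 normalized reads and percentile 96.7. RB1 had 614 and 681 normalized reads, and DIS3, an exosome nuclease, 832 and 849. CDKN2A and CDKN2B, the p16 and p15 inhibitors of cyclin D kinases, had 0 and 1.92, and 1.10 and 0. CDKN1B, the p27 inhibitor, was high with 4522 and 4565 and percentile 92.2. WWOX, a gene inside a common fragile site where MAF breakpoints fall, had 62.7 and 58.6. MAX, the dimerization partner of MYC, had 956 and 848, and MYC was 18.5 ± 0.71 times MAX per kilobase, or 5.76 to 21.8 times over the other lengths.

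The BCL2 family guardians of survival were led by BCL2L1, which encodes BCL-XL, with 9196 and 8869.7 normalized reads, and MCL1 with 10074 and 10268. BCL2 itself, the target of venetoclax, had 2901 and 2943. Per kilobase BCL2L1 was 6.36 ± 0.23 times BCL2 (3.17 to 8.84 over the other lengths), MCL1 was 4.72 ± 0.016 times BCL2 (2.38 to 6.60), and BCL2L1 was 1.35 ± 0.053 times MCL1 (SD, n = 2). BCL2A1 (3.30 and 0) and BCL2L2 (4.40 and 2.88) were near the floor. Of the opposing BH3-only genes, BCL2L11, which encodes BIM, had 2619 and 2668 normalized reads, BBC3 359 and 317, and HRK 20.9 and 19.2.

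PRC2, the complex that methylates histone H3 at lysine residues of silenced genes and contains EZH2, the protein named in the title of the series, was at intermediate levels. EZH2 had 2676 and 2687 normalized reads, 1016 per kilobase and percentile 87.1. Per kilobase it was 6.28 ± 0.34 times EZH1, the alternative catalytic subunit, which had 554 and 599.9. SUZ12 (938), RBBP4 (810) and EED (353 per kilobase), the scaffold and histone-binding subunits, were below EZH2 with principal transcripts, and RBBP7 (1927) was then the only one of 13 listed subunits in the top 10%. RBBP4 was divided by a 7943-base transcript. With the median transcript or the coding length it was also in the top 10%, at percentiles 95.9 and 93.5, and above EZH2 at 85.5 and 75.4. By coding length SUZ12, at 83.3, was above EZH2 too. Accessory subunits, which steer the complex to its sites, ran from PHF19 at 765 per kilobase to LCOR at 13.4. The MTF2 and AEBP2 subunits stood at 126 and 115.

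CRBN, the substrate receptor that thalidomide analogues bind and the ubiquitin ligase arm of many degraders, was the lowest of the 6 listed ligase genes. It had 409 and 456 normalized reads, 196 per kilobase, percentile 57.4. By coding length it was at percentile 48.9, below the median gene. DDB1, its adaptor, had 9790 and 10000.3 normalized reads and was 11.2 ± 0.68 times CRBN per kilobase. CUL4A and CUL4B, the scaffolds, stood at 868 and 435, and the small partners RBX1 and NEDD8 at 1597 and 2434 per kilobase. Of the proteins degraded through CRBN, IKZF1 had 2929.8 and 2927 normalized reads and IKZF3 3317 and 3772, with IKZF1 1.36 and 1.20 times IKZF3 per kilobase. That order turned with the median transcript (0.240 times) and by coding length (0.814 times), as the principal IKZF3 transcript is 9667 bases long. GSPT1, a translation termination factor, had 6298 and 6475 and percentile 96.5. CSNK1A1, casein kinase 1 alpha, stood at percentile 97.2, or 85.5 with its longest transcript.

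Receptor and chaperone genes of the glucocorticoid response, through which dexamethasone acts on myeloma cells, were present. NR3C1, the glucocorticoid receptor, had 2407 and 2782 normalized reads and percentile 71.3. Its chaperones PTGES3, HSP90AA1 and FKBP4 were in the top 10%. The target genes FKBP5 (2518 and 2602) and TSC22D3 (756 and 762) were above the median gene, and ZBTB16 had 0 reads in both libraries.

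Developmental regulators that Polycomb silences in many tissues were low where they were listed. Only 26 of 76 in the list are in the table, 0 of the 26 were in the top 10%, and 11 had under 10 normalized reads in both libraries. Over all 16295 listed genes, 2653 had under 10 in both. HOXB7 (112 and 128), HOXB4 (171 and 179) and HOXB3 (63.8 and 49.99) were the highest of 8 listed HOX genes, and HOXA5 (1.10 and 0) was among the lowest. SOX2, a pluripotency factor, was the only one above the median gene, with 810.1 and 713 normalized reads and percentile 66.7. TWIST1 had 166 and 145, GATA4 145 and 149, SOX9 0 and 0.961, and FOXC1 0 in both. Cancer-testis genes, normally limited to germ cells, had 6 of 30 listed. MAGEA1 stood out among them with 2712 and 2619.8 normalized reads and percentile 91.5, PRAME had 243 and 239, and MAGEA3 0 in both.

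The labelled cell type was checked with markers of other lineages. Of 74 such markers 34 are listed, 23 of the 34 had under 10 normalized reads in both libraries, and 7 had 0 in both: GZMB, COL3A1, COL1A2, KRT5, KRT7, MUC1 and CDH1. Over all 16295 listed genes, 2653 had under 10 normalized reads in both libraries and 348 had 0 in both. A marker at 0 in both DMSO libraries is listed only because of reads in the other groups. The 34 together held 0.00586% and 0.00606% of the reads. Among the listed markers near 0 were CD14 at 7.70 and 9.61, HBB at 7.70 and 9.61, CD8A at 1.10 and 0, and COL1A1 at 6.60 and 14.4. The highest by reads were TRAT1, a T cell receptor adaptor, with 444 and 421, CD68, a lysosomal protein of macrophages, with 282 and 356, and PECAM1, an endothelial adhesion molecule, with 179 and 212, followed by EPOR with 168 and 146 and CD3E with 75.9 and 61.5. None of the 34 was in the top 10%.

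At the other end of the ranking, 348 listed genes were at the lowest deposited value, 0 reads, in both DMSO libraries, 2.14% of those listed. In single libraries the number was 719 and 760. Every listed gene had at least 5 reads over the 8 libraries, so these genes had reads elsewhere in the series. Their reads were few, with a median of 13 summed over the other 6 libraries, and 240 of the 348 had 20 or fewer. In annotation, 201 are protein-coding, 53 of another type and 94 unmatched. UNC13A, a synaptic vesicle priming factor, had the most reads elsewhere, 160 and 147 normalized reads in the MS177 libraries and at most 0.856 in any MS177N1 or C24 library. CXCL1, a neutrophil chemokine, had 64.3 and 63.6 in MS177 and 0 in the other 4 libraries. KCNA5 (51.4 and 44.9), SFTPA2 (62.2 and 61.7), ARHGEF5 (42.9 and 85.1) and ACHE (27.9 and 45.8) also had their reads mainly in MS177, with at most 4.42 elsewhere. RMRP, a structured RNA, had 57.7 and 47.1 in 1 library each of MS177N1 and C24 and 0 in the rest, and PPAN-P2RY11, a readthrough of adjacent genes, had reads only in MS177N1. TBC1D3H and PLA2G4B, which belong to a duplicated family and a readthrough locus, varied within groups. These genes were chosen for being 0 in DMSO, so their reads elsewhere are a description. The number of genes at 0 in both libraries of a group was 178 in MS177, 288 in MS177N1 and 264 in C24.

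A further 783 genes had reads in only 1 of the 2 DMSO libraries, with a median of 3 reads in that library. CXCR5, the receptor that guides B cells to follicles, was an extreme case with 78 reads in library 1 and 0 in library 2. Readthrough and clone-named genes made up most of the other large gaps, such as CORO7-PAM16 with 0 and 59 reads. The spread between the libraries therefore set which low levels could be told apart. The median coefficient of variation was 55.4% for genes with a mean of 1 to 10 normalized reads, 19.3% from 10 to 100, 5.94% from 100 to 1000, 3.52% from 1000 to 10000 and 2.91% from 10000 to 100000.

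Over all genes the rank correlation of the 2 libraries was 0.992, given as a description because the genes share the 2 libraries. Of the 10118 genes with a mean of at least 100 normalized reads, 99.1% were within 1.5-fold, with 55 higher in library 1 and 34 higher in library 2 beyond that. The deviations were ordered by transcript length. The median log2 ratio of library 2 to library 1 was -0.30 for 38 genes of up to 500 bases, -0.11 from 500 to 1000 bases, -0.04 from 1000 to 2000, 0.00 from 2000 to 4000, 0.06 from 4000 to 8000 and 0.09 above 8000. The 55 genes higher in library 1 had a median transcript length of 994 bases and the 34 higher in library 2 one of 4334 bases, against 3032 overall. The pattern was not particular to DMSO: the 2 MS177 libraries ran from -0.35 to 0.13 over the same lengths, the MS177N1 libraries from 0.12 to -0.02, and the C24 libraries stayed between -0.03 and 0.00. Among the first 20 genes per kilobase, the short transcripts IGLC1, RPS27 and RPL35 differed most relative to their mean, each within 1.5-fold. The cause of the length order was not tested.

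**Figure D5:**
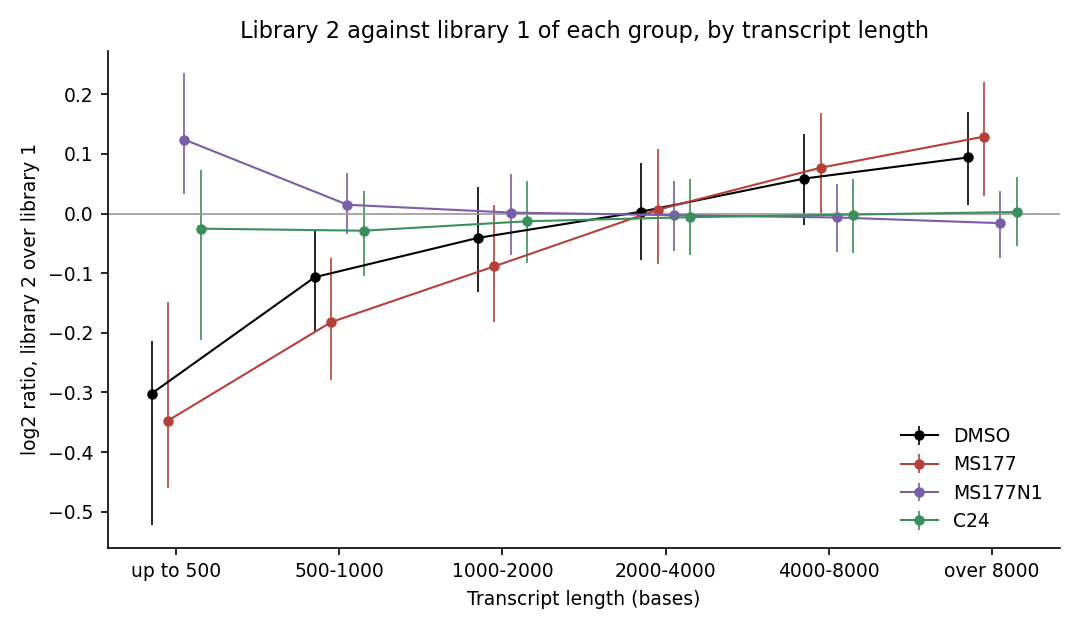
Median log2 ratio of library 2 to library 1 within each of the 4 groups, by transcript length in bases, for genes with a mean of at least 100 normalized reads. Bars span the middle 50% of genes. DMSO and MS177 rise with length from -0.30 and -0.35, MS177N1 falls from 0.12, and C24 stays near 0.

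The 5 genes most different in each direction between the DMSO libraries were mainly copies, pseudogenes and clone-named loci. Higher in library 2 were SLX1B (176 and 533 normalized reads), a nuclease gene with a near-identical copy, the pseudogenes EEF1A1P6 (255 and 614) and ZNF542P (134 and 270.1), and RP11-73M18.2 (55.0 and 148) and RP11-326A19.5 (67.1 and 143). Higher in library 1 were LUC7L2, a splicing factor (1160.1 and 433), the histone pseudogene H3F3AP4 (147 and 60.6), RP11-977G19.10 (357 and 134), RP11-1035H13.3 (228 and 86.5) and RP11-186B7.4 (171 and 73.1). Reads of such loci are shared with other genes and their levels are uncertain. None of the oncogene, lineage or secretory genes described above is among them. These are few of the 10118 genes with a mean of at least 100 normalized reads, so that absence says little about the spread of the described genes.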

How the data were processed

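RNA-seq libraries from MM1.S cells were used, 2 per group, of which the 2 DMSO libraries were described and the others served for background. Per the submitters' processing notes, the build was hg19. They name DESeq2 1.38.2, Salmon 0.1.19 and STAR 2.4.2 without saying what each did. The deposited values are log2 values that the authors' column headers call normalized, with a common minimum of 5.97. They follow the form of a variance-stabilizing transformation, which was inverted. All 130360 values in the 8 libraries gave whole reads within 0.01, and the size factors equalled median-of-ratios factors computed from these reads. The reads of listed genes were 20662196 and 23526036. The inversion was tested on simulated data.

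Normalized reads were divided by transcript length, the median of the best-ranked principal transcripts in GENCODE 29 (GRCh38), for 14436 genes matched by current or older symbol; 1859 had no match. Promoters came from RefSeq. Named genes were the 20 highest by reads and per kilobase, list members by role with the highest and lowest first, the 5 genes most different each way between the libraries with a mean of at least 100, and the 10 genes at the minimum with most reads elsewhere; promoter motif genes were added. The genes and the 25 lists (748 genes, 610 listed) were chosen with earlier results of these data known. The planned levels in reads were taken from the reads recovered from the log2 values. A few list members are not reported here. With 1 group no test was run; all values are descriptions. Python 3.11.15, numpy 2.4.6, pandas 2.3.3 and matplotlib 3.10.9 were used.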

Additional observations from a re-analysis of the deposited data

How the results depend on the processing

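No paired analysis was possible because each result describes 1 group and comes from no test. The number of genes at 0 reads was 348 in both libraries, 719 to 760 when either library was used alone, 1131 for 0 in at least 1 library and 1253 for at most 3 reads in both. The number of genes holding 50% of the reads was 765 from the mean of the libraries and 274 per kilobase. Plasma cell factors in the top 10% numbered 8 per kilobase and 13 when reads were not divided by length. Markers of other cell types numbered 23 under 10 reads and 7 at 0 reads. The spread between the DMSO libraries was 5.64 times counting noise, 7.43 over genes with a mean of at least 100 and 5.61 with libraries scaled to the same total; it has no value with 1 library. The secretory count (66) ran from 60 to 78 and the plasma cell antigen count (12) from 10 to 12 over all alternatives run, which include coding length, the median transcript and the longest transcript, added after seeing the data. Of the ratios between genes, those of DERL3 to DERL1 (2.74) and IKZF1 to IKZF3 (1.28) turned: the first was 0.638 with the median transcript, 0.757 with the longest and 0.754 by coding length, and the second 0.240 with the median transcript and 0.814 by coding length. The planned coding length from a protein table was not run. Levels under 10 reads are limited by depth.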

Other observations

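Secreted factors formed a short list at high level. Of 19 listed cytokines and factors, MIF, CCL3 and LGALS1 were in the top 10%. CCL3, a chemokine known for its part in myeloma bone disease, had 8799 and 8026 normalized reads, whereas its neighbour CCL4 had 207 and 229. DKK1, the WNT inhibitor of bone formation, had 36.3 and 19.2 normalized reads, HGF 3.30 and 1.92, and TNFSF13B, which encodes BAFF, 5.50 and 12.5. IGF1 had 969.6 and 1095.

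Levels differed between chromosomes. The median of normalized reads per kilobase was lowest for genes of chromosome 13 (78.9 over 227 genes) and chromosome 14 (86.0 over 430 genes), with 4.41% and 4.42% of genes in the top 10%. Among the autosomes and X it was highest for chromosomes 22 (249 over 333 genes) and 11 (211 over 762 genes), each with 13.8% of genes in the top 10%. That share was highest for chromosome 19, at 17.3%, although its median was 141, so the 2 measures order the chromosomes differently. The 2 libraries gave 78.1 and 80.1 for chromosome 13. Gene content, copy number and other differences between chromosomes cannot be told apart from these files.

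Promoter and transcript features varied along the ranking. In the top 10% of levels, 14.5% of 1168 genes with a RefSeq start had a pyrimidine-tract start. At lower levels, taken in steps of 10%, the share was 5.22% to 7.95%. The share in the top 10% includes the ribosomal protein genes, of which 47 of 63 had such a start. The median transcript length was 1702 bases in the top 10% and 3490 in the lowest. Because levels are divided by length, length is part of the measure.

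The 3 entries CH507-513H4.3, CH507-513H4.4 and CH507-513H4.6 had nearly equal values in each library, 15736, 15734 and 15734 reads in library 1 and 19790, 19792 and 19830 in library 2. Levels of such near-equal rows are uncertain.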
